A study of Mus musculus with 2 samples.

Results

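The spliceosomal small nuclear RNA (snRNA) genes described here are the gene models of biotype snRNA in the GENCODE M21 annotation, matched by Ensembl identifier, that were selected on at least 10 expected counts (reads assigned by estimation) in both libraries. The rule left 35 of 1385 annotated models, 1383 of which are in the tables. Of the other models in the tables, 78 had some count in at least 1 library and 1270 had none in either. The expected counts chose the members, so the levels below are a description and no test was made of them. The study measured total RNA from 1 group, common myeloid progenitors (CMP) isolated from the bone marrow of male C57BL/6J mice of 5 to 6 weeks, as primary cells with no treatment or engineered allele named. Both libraries, labelled biological replicates 1 and 2, were prepared with ScriptSeq after removal of ribosomal RNA, with 100 ng as input. One donor label covers both, so their spread may be technical in part, and whether animals were pooled is not given in the sources used here.

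CMP are bone marrow progenitors that give rise to granulocytes, macrophages, red cells and platelets. Their spliceosomes are built around snRNAs, short nuclear RNAs that pair with the pre-mRNA and with each other. U1 pairs with the 5′ splice site, U2 with the branch site, and U5 holds the exon ends together, while U4 delivers U6 in a paired form and is then released. U11, U12, U4atac and U6atac do the same work in the minor spliceosome, which removes a rare class of introns. All except U6 and U6atac carry a Sm site, the stretch on which the Sm protein ring is assembled.

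Leading sequences of the U1, U2, U4, U11, U12 and U4atac members are shown because the type assignment rests on them. Sequences are the GENCODE M21 transcripts (GRCm38, 5′ to 3′, T for U). Capitals mark the Sm-type motif ATTTNT and, where present, the element that pairs with pre-mRNA: ACTTACCT in U1, GTAGTA in U2 and AAGGAA in U12. In Gm22513 the capital marks instead the 1 base that differs from Rnu1a1.
Rnu1a1: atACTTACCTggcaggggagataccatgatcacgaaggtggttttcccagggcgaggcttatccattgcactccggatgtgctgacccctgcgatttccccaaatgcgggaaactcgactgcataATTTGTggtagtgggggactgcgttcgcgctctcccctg
Gm22513: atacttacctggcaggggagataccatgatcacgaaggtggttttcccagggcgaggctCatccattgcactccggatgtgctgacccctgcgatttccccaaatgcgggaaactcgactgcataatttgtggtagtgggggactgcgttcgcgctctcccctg
Rnu2-10: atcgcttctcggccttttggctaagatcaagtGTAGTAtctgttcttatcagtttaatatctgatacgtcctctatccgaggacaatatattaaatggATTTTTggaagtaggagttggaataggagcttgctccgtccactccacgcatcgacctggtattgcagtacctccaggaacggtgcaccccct
Gm24407: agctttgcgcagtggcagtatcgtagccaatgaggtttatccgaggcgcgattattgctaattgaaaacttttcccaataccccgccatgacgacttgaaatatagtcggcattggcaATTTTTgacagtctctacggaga
Rnu11: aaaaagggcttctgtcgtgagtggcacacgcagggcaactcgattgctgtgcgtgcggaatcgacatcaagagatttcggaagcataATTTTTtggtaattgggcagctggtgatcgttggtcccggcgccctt
Rnu12: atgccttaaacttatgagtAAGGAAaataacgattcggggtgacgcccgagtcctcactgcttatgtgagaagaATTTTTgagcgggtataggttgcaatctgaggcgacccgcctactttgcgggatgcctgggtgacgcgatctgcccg
Gm22710: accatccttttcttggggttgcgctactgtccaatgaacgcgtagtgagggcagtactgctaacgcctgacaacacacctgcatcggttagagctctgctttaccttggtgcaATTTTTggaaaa
Rnu1a1 lies at chr11:87422867-87423030 (+), Gm22513 at chr12:54696782-54696945 (+), Rnu2-10 at chr11:101658238-101658428 (+), Gm24407 at chr5:115490254-115490394 (+), Rnu11 at chr4:132270080-132270213 (-), Rnu12 at chr15:83149644-83149794 (+) and Gm22710 at chr1:118459141-118459265 (-).

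By symbol, or by sequence match to a named copy (80% identity over 80% of its length), 16 members were U1, 12 were U2, 2 were U5, 1 was U11 and 1 was U12. The annotation names no U4 or U4atac copy, so Gm24407, Gm24265 and Gm22710 stayed unassigned under that rule. From textbook knowledge of their sequences they are called U4 (Gm24407 and Gm24265) and U4atac (Gm22710) here, a naming chosen after the data had been seen. The longest run of Gm24407 complementary to the U6 copy Rnu6, with G-C and A-T pairs, was 8 bases starting at base 5. Rnu1a1 had a run of the same length, so this length alone does not set U4 apart.

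The members shared sequence features that the count rule did not use. ATTTNT was found on the transcript strand in 35 of 35 members and in 54.8% of the 1348 snRNA models outside the rule. The models outside include 539 of U6, a type without a Sm site. Within type, ATTTNT was in 42 of 56 U1 models and 4 of 5 U2 models outside the rule. ACTTACCT was present in 16 of 16 U1 members, in 28 of 56 U1 models outside the rule and in 3.26% of all models outside it. GTAGTA was present in 12 of 12 U2 members, in 3 of 5 other U2 models and in 2.89% of all models outside the rule. AAGGAA was in 1 member, Rnu12, and in 2.45% of the models outside. These matches describe letters and are not evidence of binding.

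In U1 and U2, members were by median also closer to the named copies than the rest of their type, but part of this is built in. Named copies among the members, such as Rnu1a1, match themselves at 100%. Models of identical sequence share reads, so a counted named copy can bring its identical copies into the members. The medians count each of these copies separately and were not taken per distinct sequence. The median identity to the best named copy was 100% for U1 members and 85.4% for the other U1 models, and 99.5% against 89.2% for U2. Identity alone did not define membership. Of the U6 models, 43, the named Rnu6 itself among them, matched a named U6 copy at 100% over the full length of that copy, and none was a member.

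The 35 members held 217892 expected counts of 28158803 in replicate 1 and 851807 of 84041054 in replicate 2. These sums are 0.774% (95% exact binomial interval 0.771 to 0.777) and 1.01% (1.01 to 1.02) of the libraries, a mean of 0.894% ± 0.170 (SD, n = 2). Intervals are for counting error only and leave out the spread between libraries and the assignment of shared reads. No molecular identifiers are named for these libraries, so the intervals may be too narrow even for counting error. In TPM, a level scaled by effective length so that each library has the same total, the same models held 21.1% and 25.6% of the total. In bulk RNA, fewer cells of a type and less RNA per cell cannot be told apart, so these are levels per library and not per cell.

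The distance between the share of counts and the share of TPM followed from the effective length, the mean number of start positions the quantification allows a fragment. The longest members, the 191 nt U2 models, had an effective length of 19.7 nt in replicate 1 and 24.6 nt in replicate 2, or 10.3% and 12.9% of their length. U1 models of 164 nt had 10.1 and 13.1 nt, Rnu12 had 6.72 and 8.94 nt, and the 116 nt U5 models had 1.49 and 2.10 nt. For comparison, 9697 genes of 1000 to 2000 nt had median effective lengths of 1202 and 1237 nt.

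One CPM (a count scaled to the library total) was therefore worth 18.8 TPM for a U2 model and 247.3 TPM for a U5 model in replicate 1, and 17.6 and 205.9 TPM in replicate 2. With the annotated length in place of the effective length, the members' share of TPM was 5.89% in place of 23.3%. All 35 members are shorter than the lower end of the size range on the label of replicate 1, which is 200, and 23 are also shorter than that of replicate 2, which is 187, if those labels, which carry no unit, are in nucleotides. The part of library size selection in these levels was not tested.

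**Figure D1:**
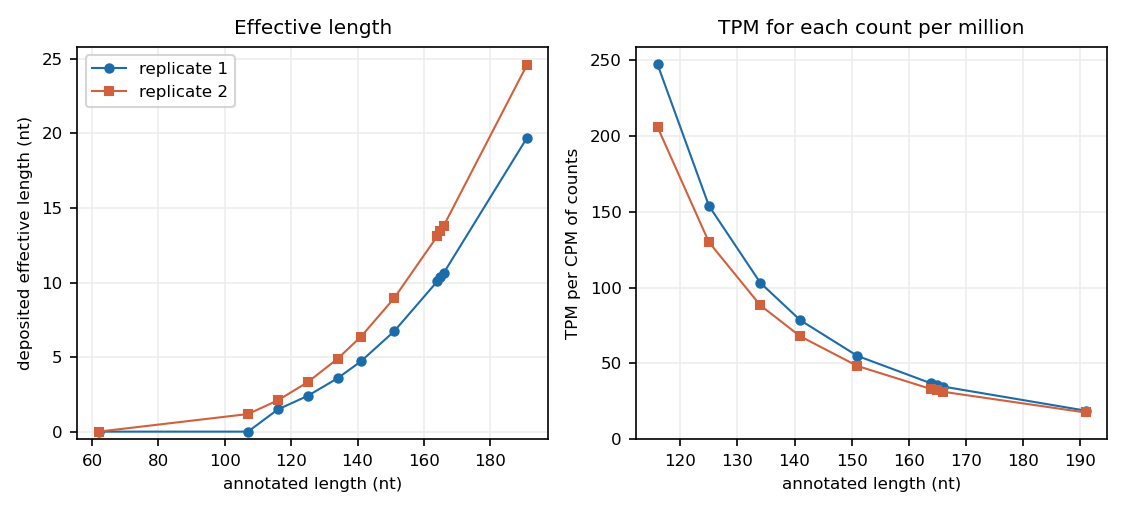
Left, the deposited effective length (nt) against annotated length (nt) for the 9 member lengths and for U6 (107 nt) and U7 (62 nt), one line per library. Right, TPM per CPM of counts for the member lengths; the 116 nt U5 models get 247.3 TPM per CPM in replicate 1 and the 191 nt U2 models 18.8.

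The length classes showed where detection ended. Of the 217 annotated models of 150 nt and over, 29 were members and held 99.3% and 99.0% of the member counts. Among 92 models of at least 120 but under 150 nt, 4 were members, and among 881 of at least 100 but under 120 nt, 2 were. None of the 193 models under 100 nt had a count in either library, and the limit that a count of 0 allows (3 counts) was 0.107 CPM and 0.0357 CPM, respectively. The U7 model of 62 nt had an effective length of 0 nt in both libraries. The limit therefore bounds reads and not the level of RNAs this short.

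Of the types assigned by symbol or sequence match, those without a member, U6 and U7, are the short ones. U6, the catalytic snRNA, has 539 annotated models of a median 107 nt, and together they held 25.99 counts in replicate 1 and 140 in replicate 2. The copies named Rnu6 and Rnu6-ps2 were listed at 0 in both libraries, at effective lengths of 0 nt in replicate 1 and 1.18 nt in replicate 2. U7, which acts in histone mRNA processing and not in splicing, has 48 matched models, all at 0 counts. At these effective lengths the tables do not measure the level of U6 or U7.

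**Figure D2:**
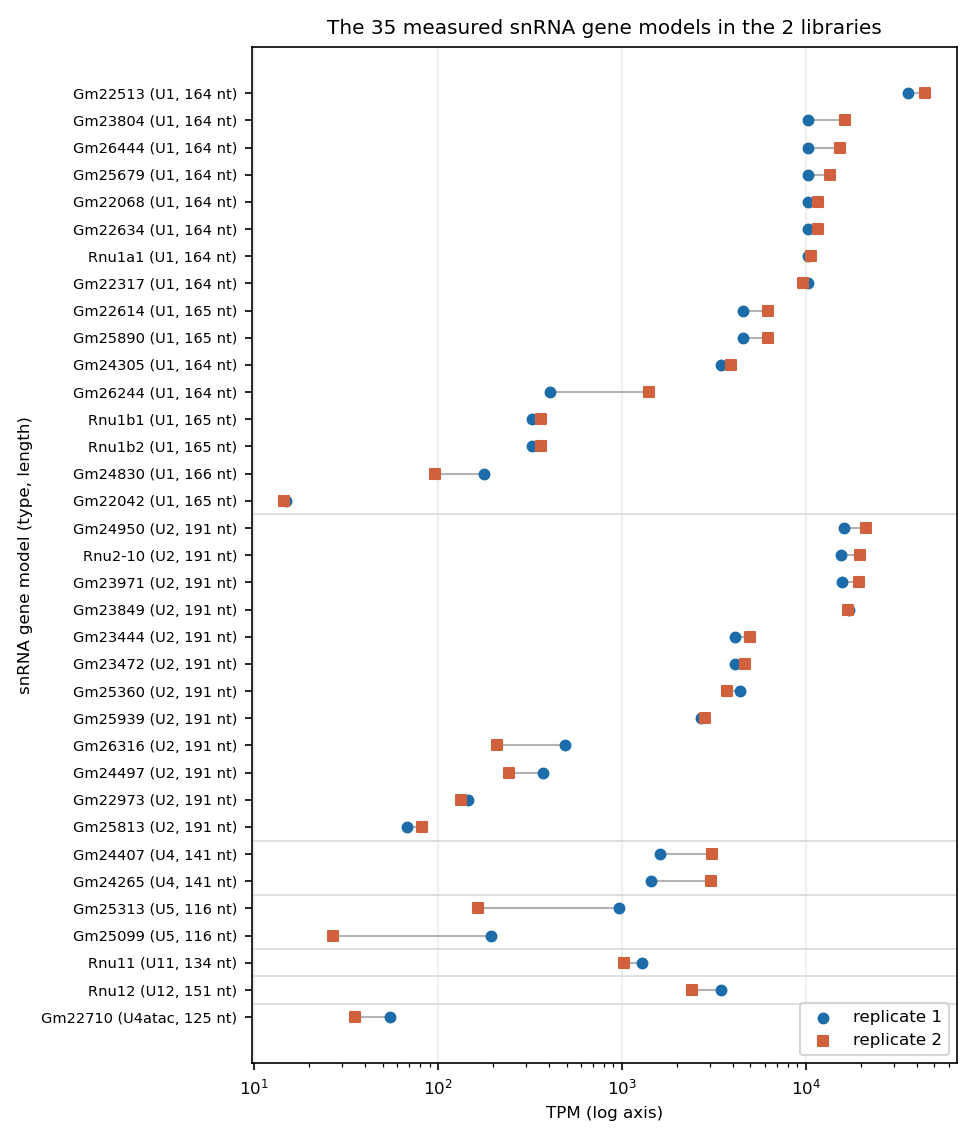
TPM (log axis) of each of the 35 members in replicate 1 (circles) and replicate 2 (squares), grouped by snRNA type and ordered by mean. Gm22513 is highest in both libraries, at 35695 and 44393 TPM, and Gm22042 lowest, at 14.9 and 14.5 TPM.

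U1 and U2, the snRNAs that first recognise the intron, took nearly all of the snRNA counts. The 16 U1 members summed to 93275 and 388366 counts, which are 3312 and 4621 CPM. The 12 U2 members summed to 121270 and 450594 counts, or 4307 and 5362 CPM. Of the member counts, U1 was 44.2% ± 1.97 and U2 54.3% ± 1.95 (SD, n = 2).

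The order of U1 and U2 changed with the scale. The U2 sum was 1.3 and 1.16 times the U1 sum in counts but 0.667 and 0.620 times in TPM. Either way the order was the same in both libraries. Since the TPM scale rests on the small effective lengths given above, neither ratio is a ratio of molecules.

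Among U1 models, mouse genes make 2 classes, U1a and the U1b forms known from embryonic cells. The 10 members of 164 nt, the U1a class, held 85393 and 353492 counts, while the 6 members of 165 or 166 nt, the U1b class, held 7882 and 34874. U1b was therefore 8.45% and 8.98% of U1 counts. The share was close in the 2 libraries. As a share within each library it is not scaled by their total counts, which differ 2.985-fold.

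Copies of identical sequence cannot be separated by reads inside them, so the U1 and U2 counts are given by sequence. The members carry 23 distinct sequences, and 18 members have at least 1 identical annotated copy. The U1a models Rnu1a1, Gm22068, Gm22634, Gm23804, Gm25679, Gm26444 and Gm22317, 7 in all, share 1 sequence. In replicate 1 each was assigned 7860.04 counts, an even split, and in replicate 2 the same models ranged from 24544 for Gm22317 to 41571 for Gm23804.

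The deposited posterior standard deviation of the count shows how loosely these single-copy values are held. It was 29.5% to 78.2% of the posterior mean over the 7 copies in replicate 1, and 45.6% to 63.9% in replicate 2. Over all members it passed 10% in 21 models in replicate 1 and in 20 in replicate 2. The sum over the 7 copies, 55020 and 226657 counts, was 59.0% and 57.8% of all U1 counts.

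Gm22513 had the highest expected count and TPM of the members in both libraries. It is the U1a copy printed above that carries T60C, with positions counted from 1 at the 5′ end of Rnu1a1, and it has no identical annotated copy. It held 27395 counts in replicate 1 and 113255 in replicate 2, with posterior standard deviations of 0.0598% and 0.0284% of the mean. By posterior mean counts the U2 copy Gm23971 was above it, at 35678 and 131612 against 27396 and 113263, but with standard deviations of 66.7% and 65.0% of its mean.

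Those counts were 0.498 and 0.4997 times the summed counts of the 7 Rnu1a1-sequence copies. Per annotated copy, Gm22513 stood at 3.49 and 3.50 times the Rnu1a1 sequence. With posterior mean counts the ratios of sums were 0.528 and 0.550. The position of this 1 copy relative to the main U1 sequence thus differed little between the libraries.

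Gm24305, also in the chromosome 12 group and with A26G against Rnu1a1, held 2666 and 9977 counts. That was 0.0485 and 0.0440 times the Rnu1a1 sum. Per annotated copy it stood at 0.339 and 0.308 times the Rnu1a1 sequence, so Gm22513 and Gm24305, each 1 base from Rnu1a1, lay on opposite sides of it.

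Within U1b, the highest sequence was that of Gm22614 and Gm25890, which differ from the copy named Rnu1b1 by T33C. Their sum was 7211 and 32667 counts, while the pair Rnu1b1 and Rnu1b2, identical to each other, summed to 514.96 and 1910.02. The named copies were thus not the main U1b sequence: the T33C pair held 14 and 17.1 times their counts. Gm22042, a lone chromosome 4 copy with T22C and T33C, was near the threshold with 11.8 and 38.1 counts.

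The third U1b sequence, of 166 nt, has 3 annotated copies of which only Gm24830 was a member. Gm24830 held 144.29 and 259.56 counts. Rnu1b6 and Gm26232, identical to it, were listed at 0 in replicate 1 and at 173.47 and 231.06 in replicate 2. Summed over the 3 copies the sequence had 5.12 and 7.90 CPM, so the log2 ratio of Gm24830 alone, -0.73, had the opposite sign to that of its sequence, 0.63.

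U2 was led by 1 sequence more strongly than U1. Rnu2-10, Gm23849, Gm24950 and Gm23971 share it and summed to 96720 and 369802 counts, 79.8% and 82.1% of U2. Single copies ranged from 23426 to 25820 counts in replicate 1 and from 81298 to 101202 in replicate 2, with posterior standard deviations of 47.0% to 89.96% of the mean.

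The next U2 sequence carries G109C against Rnu2-10 and has 2 copies, Gm23444 on chromosome 11 and Gm23472 on chromosome 1. It held 12338 and 46318 counts, 10.2% and 10.3% of U2. Gm25360, with C78T, A95G, G109C and C154T, held 6567 and 17743 counts, and Gm25939, with T69C, C78T and G109C, held 4030 and 13541. Both have no identical annotated copy, and their posterior standard deviations were at most 0.109% of the mean.

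The other 4 U2 members, each of a sequence of its own, took few counts. Gm26316 (C170T) held 736.70 and 999.09 counts, Gm24497 (G109C and C186A) 558.45 and 1158.94, Gm22973 (9 substitutions) 219.00 and 641.23, and Gm25813 (C78T and G131C) 101.33 and 390.47. The value of Gm24497 depends on how shared reads are split: its posterior mean counts were 1287 and 2935, with standard deviations of 69.9% and 68.2% of the mean, above those of Gm26316 at 735.91 and 996.28.

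**Figure D3:**
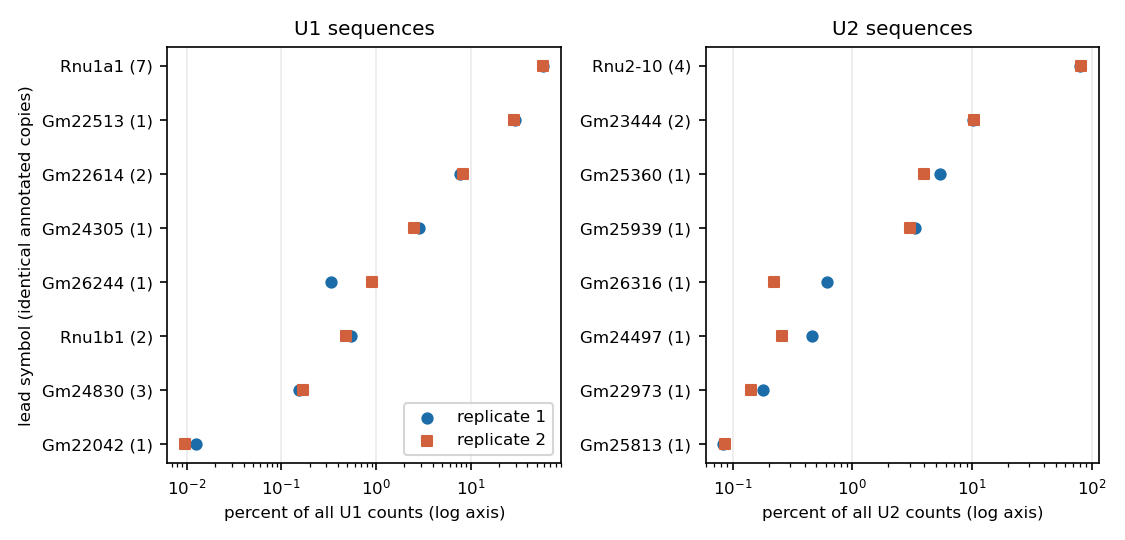
Percent of all U1 counts (left) and all U2 counts (right), on log axes, for each distinct member sequence in replicate 1 (circles) and replicate 2 (squares); the number of identical annotated copies is in brackets. The order of the first 4 sequences of each type is the same in both libraries, led by Rnu1a1 at 59.0% and 57.8% and by Rnu2-10 at 79.8% and 82.1%.

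U4, which chaperones U6 into the spliceosome, was represented by 2 neighbouring genes that differ by 2 bases, A88G and A99C in Gm24265 with positions counted along Gm24407. Gm24407 had 575.65 and 3806.46 counts, 20.4 and 45.3 CPM. Gm24265 had 517.35 and 3787.54 counts, 18.4 and 45.1 CPM. The genes were near parity, at 1.11 and 1.01 times in counts (Gm24407 over Gm24265), and both were higher in replicate 2.

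U5 was the lowest of the major types that had members, in counts and in summed TPM. Its models had effective lengths of only 1.49 and 2.10 nt, so these values do not show that U5 RNA was scarce. Gm25313 held 109.5 and 67 counts and Gm25099 held 22 and 11, together 4.67 and 0.928 CPM. In TPM the 2 models summed to 1155 and 191.1. Rnu5g, the named U5 copy, was listed at 109.5 counts in replicate 1, the same value as Gm25313, and at 0 in replicate 2, so it was not a member. Over Gm25313 and Rnu5g the counts were 219 and 67, and over all annotated U5 copies 252.69 and 150.36.

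Of the minor spliceosome snRNAs, U11, U12 and U4atac had 1 member each, and no member was called U6atac. The annotation holds 4 models matched to U11 and 4 matched to U12. Rnu12, the branch-site snRNA of that machine, held 1762 and 4171 counts, 62.6 and 49.6 CPM. Rnu11, its 5′ splice site partner, held 351 and 981 counts, 12.5 and 11.7 CPM. The ratio of U11 to U12 was 0.199 and 0.235 in counts and 0.375 and 0.430 in TPM. Gm22710 (U4atac) was at the threshold with 10 and 23 counts, 0.355 and 0.274 CPM, and it overlaps an exon of another gene, as given below.

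In TPM, which is scaled per length, the types ran from U1 (136554 ± 21654, SD, n = 2) through U2 (87512 ± 9423), U4 (4588 ± 2180), U12 (2917 ± 736) and U11 (1159 ± 181) to U5 (673 ± 682) and U4atac (45.1 ± 13.5). U4 and U12 exchanged places between the libraries, with U12 at 3437 TPM above U4 at 3047 in replicate 1. U11 and U5 were at 1287 and 1155 TPM in replicate 1, closer than the spread of U5 between the libraries. U1 and U2 were above all other types in both libraries.

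Most members lay in clusters, defined as members less than 100 kb from the next on 1 chromosome. There were 7 such clusters with 25 members, and they held 95.8% and 96.0% of the member counts. The U2 cluster at chr11:101604850-101658428, with 5 members in 53.6 kb, held 44.7% and 43.5% of member counts. The U1a cluster at chr12:54696782-54738622, with 7 members in 41.8 kb, held 31.8% and 34.4%.

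Smaller clusters were the U2 genes at chr1:72226240-72255198 (4 members, 7.95% and 6.45%), Rnu1a1 and Gm22068 at chr11:87422867-87426879 (7.22% and 6.69%) and the 2 U1b groups on chromosome 3 (3.31% and 3.84% for Gm25890 with Gm22614, 0.303% and 0.255% for Gm24830, Rnu1b1 and Rnu1b2). The U4 pair spans 0.936 kb on chromosome 5. Because identical copies lie in different clusters, as with Rnu1a1 on chromosomes 11 and 12, cluster sums share the uncertainty of the copies.

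Another annotated gene overlapped 10 members, and 25 overlapped none. Of the 10, 8 lay in introns only, such as Rnu1a1 and Gm22068 on the sense strand of Tex14, whose own level was 0.21 and 0.06 TPM, and Gm23849 in Rdm1, at 3.11 and 2.44 TPM. Rnu11 overlaps an exon of the non-coding gene Gm28872 on the opposite strand, which held 22 and 189 counts. The deposited posterior standard deviation of Rnu11 was 0 in both libraries, so the quantification divided none of its reads with Gm28872. Whether the counting used strand is not given in the sources used here, and the assignment itself was not tested. Gm22710 lies in an exon of the antisense gene 2900060B14Rik on its own strand and in an intron of Clasp1 on the other. The deposited data hold no level for 2900060B14Rik. Reads of that gene may therefore be among the few counts of Gm22710, which was not tested.

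Summed over the members, replicate 2 was higher than replicate 1 by 1.31-fold in CPM (95% counting interval 1.304 to 1.316), a log2 ratio of 0.39 with TMM scaling. The median member had a log2 ratio of 0.32, and 25 of 35 were above 0. Over all 13296 genes with at least 10 counts in both libraries the median was 0.00, and 6624 were above 0. Over 76 other genes under 200 nt with the same minimum the median was 0.16, and 41 were above 0. With 1 library on each side these are differences between libraries and have no test. The 35 members carry 23 distinct sequences, and identical copies divide shared reads. Counts and shares of members, here and below, are therefore not over separate measurements.

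The types did not move together between the libraries. The U4 pair was 2.33-fold higher in replicate 2 (2.19 to 2.48), U1 1.40-fold (1.39 to 1.41) and U2 1.25-fold (1.24 to 1.25). U12 was at 0.793 times (0.750 to 0.839), U11 at 0.936 times (0.828 to 1.06) and the U5 members at 0.199 times (0.148 to 0.264). Over all annotated U5 copies the ratio was also 0.199 (0.161 to 0.244), but single copies differed in direction. The pair Gm25313 and Rnu5g was at 0.1025 times (0.0768 to 0.135). Outside the rule, Gm24871 was at 0.238 and 0.159 CPM, while Gm23143 was higher in replicate 2, at 0.178 and 0.702 CPM. U4atac, with few counts, was at 0.771 times (0.353 to 1.81). From the shortest type to the longest (U5, U4atac, U11, U4, U12, U1, U2) the ratios were 0.199, 0.771, 0.936, 2.33, 0.793, 1.40 and 1.25, and the part of length in them was not tested.

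At least 2-fold higher in replicate 2 were 3 of 35 members (8.57%), Gm26244, Gm24265 and Gm24407, against 5.05% of all 13296 genes. At least 2-fold lower were also 3 (8.57%), Gm25099, Gm25313 and Gm26316, against 6.11% of all genes. Of 76 other genes under 200 nt that met the same minimum, 14 were 2-fold higher (18.4%) and 14 lower (18.4%), and these shares were not tested against each other. The 3 higher members are a U1a copy and the U4 pair, and the 3 lower ones are both U5 members and a U2 copy.

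**Figure D4:**
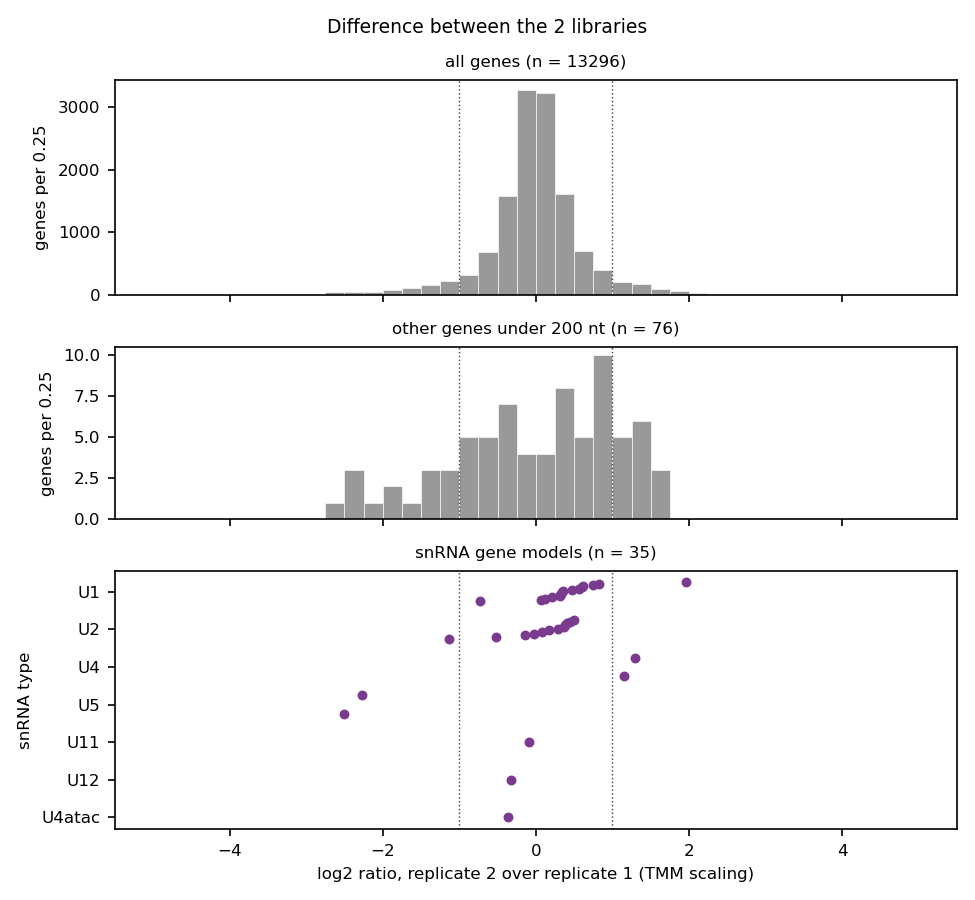
Distribution of the log2 ratio of replicate 2 over replicate 1 (TMM scaling) for all 13296 genes and for 76 other genes under 200 nt (genes per bin of 0.25), with the 35 members as points by type below; dotted lines mark 2-fold. The U1 and U2 points lie mostly just above 0, the U4 pair at 1.15 and 1.3, and the U5 pair at -2.27 and -2.50.

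The libraries also differed in the deposited effective lengths, which were 1.25 times longer in replicate 2 for U2 models and 1.41 times for U5 models, and in the size range on the label, 200 to 1000 for replicate 1 and 187 to 1606 for replicate 2. Of the cell type markers, Kit, Cd34, Mpo, Gata2 and Myb were at 8.93 TPM or more in both libraries, with log2 ratios from -0.23 to 0.40, Pax5, Cd3e, Cd8a and Col1a1 were listed at 0, and Pecam1 was at 8.76 and 12.6 TPM. Adgre1, C1qa and Ly6a were under 1 TPM, with log2 ratios of 0.93, -0.97 and 0.17. The lymphoid receptor Il7r was at 0.96 and 0.13 TPM (218 and 76 counts), a log2 ratio of -3.08. The part of these in the ratios was not tested.

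Models outside the threshold changed the total over all types little, but not the U5 sum. The 5 members just inside it, by the lower of the 2 counts, were Gm22710 (10 and 23), Gm25099 (22 and 11), Gm22042 (11.79 and 38.10), Gm25313 (109.5 and 67) and Gm25813 (101.33 and 390.47). The 5 just outside were Gm25189 (7 and 33.21, U1), Gm24871 (6.69 and 13.36, U5), Gm23143 (5 and 59, U5), Gm23686 (4.01 and 8.03, U1) and Gm22129 (2 and 5.95, U6). With all annotated models in place of the members the share of counts was 0.897%. The U5 sum was then 252.69 and 150.36 counts, against 131.5 and 78 over the U5 members.

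The mRNAs of the proteins that bind and process snRNAs were present in these cells throughout. All lists were put together from general knowledge with earlier results of these data known, and of the 96 genes in them all except Snrpn were at 1 TPM or more in both libraries, against 42.5% of 21474 protein-coding genes. Only Lsm7, of the LSm ring on the U6 3′ end, was past 2-fold between the libraries (11.98 and 26.8 TPM, log2 ratio 1.01). Over all genes 5.05% were 2-fold higher and 6.11% lower, and over genes with at least 1000 counts in both libraries 0.0980% and 0.216%.

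The Sm core proteins, which form the ring on the Sm site, were the most abundant list, with a median of 46.1 TPM ± 2.42 (SD, n = 2). Snrpd1 was at 110.2 ± 4.22 and Snrpe at 106.3 ± 13.8 TPM, while Snrpd3 was at 9.12 ± 1.38. Snrpn, the tissue-restricted paralog of Snrpb, was listed at 0 in both libraries. The LSm2-8 ring had a median of 27.9 ± 0.615 TPM, led by Lsm3 at 76.8 ± 10.9.

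Of the U1 particle proteins, Snrnp70 was at 78.9 ± 5.07 TPM, Snrpa at 22.9 ± 4.50 and Snrpc at 22.1 ± 3.32. The 12 U2 particle proteins had a median of 28.3 ± 0.919 TPM. Sf3b1, the branch-site subunit often mutated in myeloid neoplasms, was highest at 71.4 ± 10.5 TPM, followed by Sf3b2 (50.02 ± 5.60) and Sf3a3 (37.8 ± 2.44). Sf3b5 (3.70 ± 0.240) and Sf3b4 (7.32 ± 1.38) were lowest.

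The 13 proteins of the U4/U6 and U5 particles had a median of 21.9 ± 3.09 TPM. U5 RNA had few counts and U6 had no member, but at their low effective lengths this does not show that these RNAs were scarce. Snu13, which binds U4, was highest (48.1 ± 0.955), followed by the helicase Snrnp200 (43.9 ± 8.88) and the GTPase Eftud2 (36.1 ± 8.68). Prpf4 (4.67 ± 0.750) and Txnl4a (6.04 ± 0.262) were lowest. The 9 minor spliceosome proteins had a lower median, 11.4 ± 2.47 TPM, with Snrnp48 (23.6 ± 0.283), Zcrb1 (22.8 ± 2.26) and Scnm1 (15.8 ± 5.27) highest and Zmat5 (1.90 ± 0.919) and Snrnp35 (2.96 ± 0.375) lowest.

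The lists on making snRNAs had lower medians than those on binding them. The 10 genes of snRNA transcription had a median of 6.02 ± 0.887 TPM, with the SNAPc subunits Snapc5 (15.95 ± 1.79), Snapc4 (9.65 ± 0.403) and Snapc3 (8.87 ± 3.18) highest and Ell (1.98 ± 0.488) and Snapc2 (3.27 ± 0.212) lowest. The 14 Integrator subunits, of the complex that cuts the 3′ end, had a median of 6.60 ± 1.13 TPM, from Ints13 (24.7 ± 6.22), Ints7 (18.5 ± 0.537) and Ints8 (13.2 ± 6.07) down to Ints12 (3.15 ± 0.0636) and Ints5 (3.13 ± 1.36).

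The 20 genes of export, SMN assembly and maturation had a median of 7.51 ± 1.34 TPM. Larp7 (32.7 ± 3.81), the cap-binding subunit Ncbp1 (28.6 ± 2.60) and the export adaptor Phax (15.8 ± 1.74) were highest, while Coil, of Cajal bodies (2.81 ± 0.127), and the import adaptor Snupn (2.26 ± 0.580) were lowest. The median over the 9129 protein-coding genes at 1 TPM or more in both libraries was 6.72 and 7.79 TPM. The medians of the 3 lists on making and maturing snRNAs lay near this value, and those of the particle protein lists above it.

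**Figure D5:**
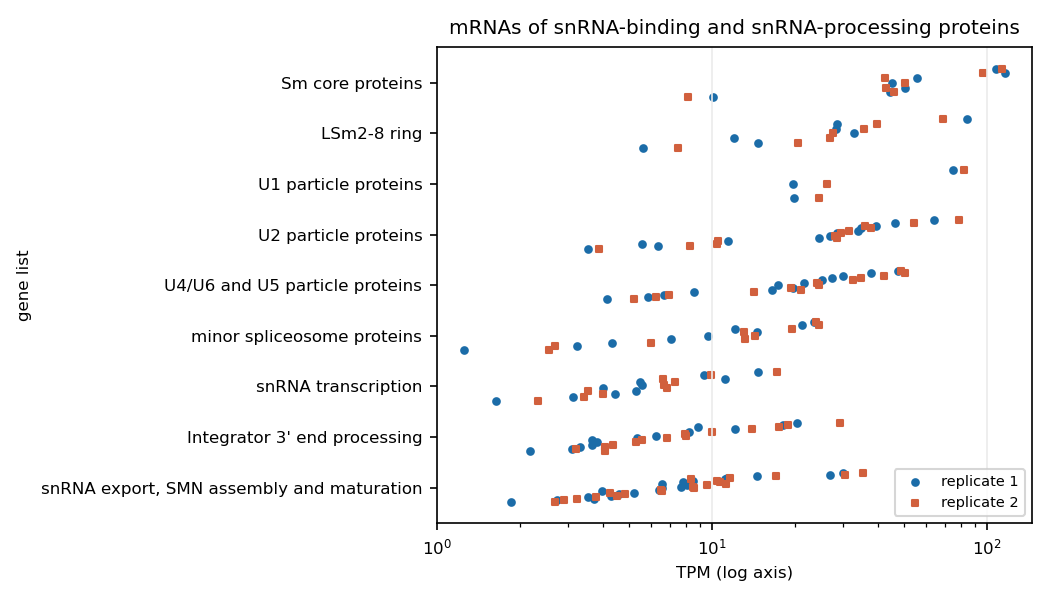
TPM (log axis) of the genes of 9 lists of snRNA-binding and snRNA-processing proteins in replicate 1 (circles) and replicate 2 (squares); Snrpn, listed at 0, is not drawn. Sm core mRNAs had the highest median at 46.1 TPM and the 10 genes of snRNA transcription the lowest at 6.02.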

How the data were processed

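Total RNA of 2 CMP libraries was analysed. Per the file headers, the authors deposited for each gene an expected count (an estimated count of reads, not scaled to depth), TPM and FPKM (both corrected for effective length), posterior mean counts with a standard deviation, and effective length. The readme files name mm10 and GENCODE M4, and the aligner and quantifier are not given in the sources used here. Depth was 28158803 and 84041054 expected counts over Ensembl genes. The members and all gene lists were chosen with earlier results of these data known.

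Gene models were matched to GENCODE M21 by Ensembl identifier without version. Members have at least 10 expected counts in both libraries, and all may be named. The 5 models on each side of that threshold, list genes (of longer lists the 3 highest and 2 lowest first) and overlapping genes are also named. Types came from symbols or blastn 2.17.0. A U5 sequence and 1 marker gene are not reported here. Sums by identical sequence and the names U4 and U4atac were added after seeing the data. CPM uses the library total. Log2 ratios use TMM scaling from edgeR 4.0.16 with a prior count of 0.5, and DESeq2 1.42.0 size factors as an alternative, with expected counts rounded to whole numbers. The ratio calculation was tested on simulated data. With 1 group no test between conditions exists. Python 3.11.15 and R 4.3.3 were used. Alternatives tried were other minimum counts, posterior means, FPKM, annotated length, other scaling and each library alone.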

Additional observations from a re-analysis of the deposited data

How the results depend on the processing

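The share of TPM was 23.3% as deposited and 5.89% with counts over annotated length. U1 was 44.2% and U2 54.3% of member counts, and 58.4% and 37.6% of member TPM; the 4 smaller type sums (U5, U11, U12 and unassigned) also took a larger share on that scale. Without the 4 Rnu2-10 and 7 Rnu1a1 sequence copies, an alternative chosen after seeing the data, the share of counts was 0.269% in place of 0.894%. The number of members was 46 at a minimum of 1, 32 at 50 and 38 with posterior means. With 1 library left out, the share of counts ranged from 0.774% to 1.01%, that of TPM from 21.1% to 25.6%, U1 from 42.8% to 45.6% and U2 from 52.9% to 55.7%; with n = 2 these are the values of the single libraries and say nothing about stability. On the same basis U5 was 0.0604% of member counts in replicate 1 and 0.00916% in replicate 2, U12 0.809% and 0.490%, and the unassigned models 0.506% and 0.894%. The log2 ratio of the member sum was between 0.38 and 0.40 under all 6 alternatives run and cannot be computed with 1 library left out. The low effective lengths limit all TPM values of these genes. No paired analysis was possible because there is 1 group.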

Other observations

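A U1 model outside the rule was near 0 in 1 library and high in the other. Gm24924, a 164 nt U1 copy on chromosome 18, was listed at 0.01 counts in replicate 1 and 3601.59 in replicate 2, with posterior standard deviations of 1316 and 11956 counts. Gm26244, a member on the same chromosome in an intron of Rock1, held 311.21 and 3603.27 expected counts but 1981 and 13932 posterior mean counts. The single-copy values of both models are therefore held loosely in these tables.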
